A study of Homo sapiens with 23 samples.

Results

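The libraries described here are those of OVSAHO, an established cell line of high-grade serous ovarian cancer, in its parental form and in a form that had acquired resistance to prexasertib. They were taken as the columns of the expression table whose name holds the line, with a resistant suffix or without it. This gave 6 of the 23 libraries, 3 parental ones (numbered 7, 8 and 9) and 3 resistant ones (numbered 19, 20 and 21), each with values for 21658 genes. The other 17 libraries belong to OV-90, Kuramochi and EFO-21, 3 further ovarian cancer lines with a resistant form each. The labels call the 3 libraries of a group biological replicates, and the study states that resistance was raised in culture by stepwise increases of the drug concentration. The dose and the duration for OVSAHO are not given in the sources used here, nor is whether the resistant libraries were grown with the drug present. Whether the resistant cultures came from 1 resistant population or from separate selections is not given either. The p-values measure the spread between the 3 libraries of each form, and may not cover the spread between independent selections.

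Prexasertib inhibits CHK1, the kinase encoded by CHEK1. When replication forks stall, ATR activates CHK1, which restrains CDC25 phosphatases and so keeps CDK2 and CDK1 from driving a damaged cell through S phase and into mitosis. WEE1 acts in parallel by phosphorylating the same CDKs. Serous ovarian cancers arise from Müllerian type epithelium, and lines of this cancer usually keep epithelial junction genes such as CDH1 and EPCAM together with tumour markers such as MUC16 (CA-125) and WFDC2 (HE4).

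Values are deposited log2 expression values, quantile normalized by the authors, and a change is the mean of the resistant libraries minus the mean of the parental ones on that scale. A gene was called at an adjusted p under 0.05 in limma and a change of at least 2-fold, which is 1 on the log2 scale. Per-library values are given in the order 7, 8, 9 for parental and 19, 20, 21 for resistant libraries. A value in the lowest 10% of its library, at or under 1.70 to 1.87, is called the bottom of the scale, and where all libraries of a group lie there the difference is not a measured fold change. In bulk RNA, fewer cells of a type and less RNA per cell cannot be told apart.

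Across genes, profiles correlated (Pearson's r) at 0.981 to 0.982 among the parental libraries, 0.985 to 0.986 among the resistant ones and 0.954 to 0.960 between the groups, against 0.637 to 0.808 with libraries of the other lines, so the labels of the line held and no library was a copy of another. PAX8, a lineage factor of Müllerian epithelium, read 8.95, 9.04 and 9.06 in the parental and 9.09, 8.995 and 9.02 in the resistant libraries. A pattern that crosses the lines has to be given first. A set of 33 genes was at least 4-fold higher in OV-90 parental library 2 than in OV-90 parental library 3, and also at least 4-fold higher in Kuramochi parental library 6 than in Kuramochi parental libraries 4 and 5. It holds 9 immunoglobulin genes, 4 keratin genes of stratified epithelium, the platelet genes PPBP and PF4, HBB of red blood cells and small Cajal body RNAs. Also in it are SNORD3A, a small nucleolar RNA, and the histone genes H2BC10 and H2BC13, among others. SNORD3A ranged from 10.3 to 10.9 in OV-90 library 2, Kuramochi library 6 and the parental OVSAHO libraries, and reached at most 8.57 in the other 18. As a group these genes were also high in all 3 parental OVSAHO libraries. IGLC2, an immunoglobulin light chain gene, ranged from 6.78 to 8.49 in these 5 libraries and reached at most 1.36 in the other 18. Of the 33 genes, 27 (81.8%) were called lower in resistant OVSAHO and 0 higher in limma. CD79A, a signalling chain of the B cell receptor, read 1.11, 1.77 and 0.90 in the parental and 0.95, 2.09 and 0.77 in the resistant libraries, with overlapping groups. All its parental values lie at the bottom of the scale, so a fall could not be measured. Of the 10 B and plasma cell markers in all, 5 were called lower and 1 higher. The higher call was lost in most fits that left out 1 library. A wider count took genes at least 4-fold higher in OV-90 library 2 than 3 or in Kuramochi library 6 than in 4 and 5. These were 80 of the 830 genes called lower in OVSAHO (9.64%), the 27 included. Among the 851 genes called higher there were 28 (3.29%), against 2.08% of all genes. What separates these 5 libraries was not tested, and the parental state of OVSAHO and this difference cannot be told apart for these genes. EPCAM and CDH1 are not in the set. Their values over the 23 libraries are plotted beside it, and whether the same difference touches them or other epithelial genes was not tested.

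**Figure D1:**
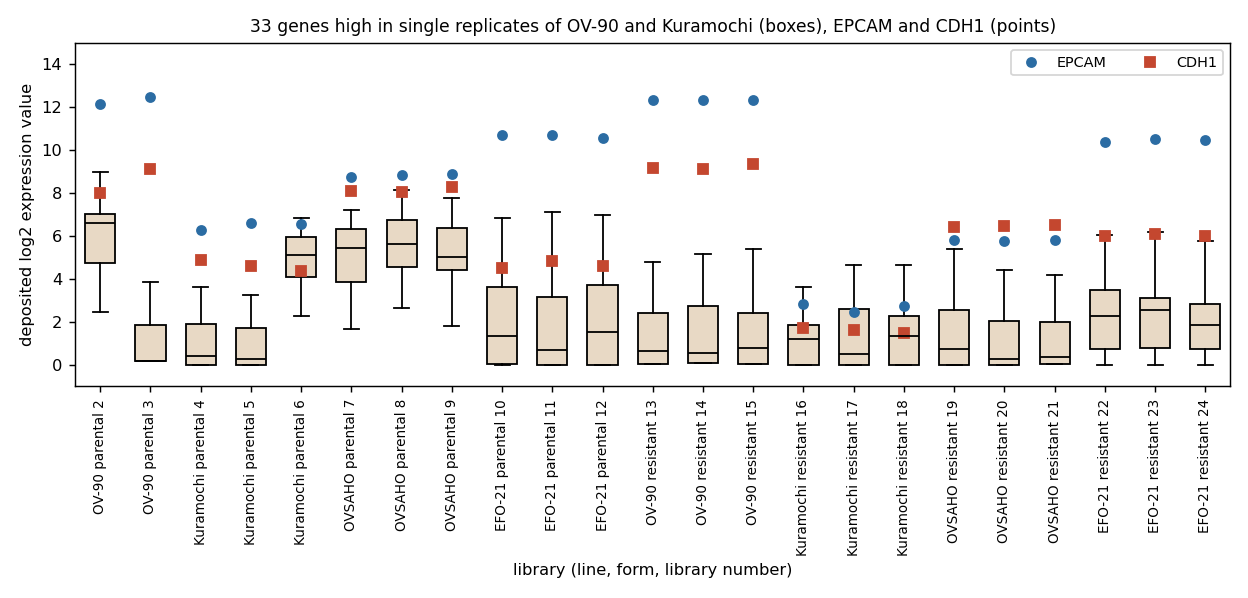
Deposited log2 values (vertical axis) in each of the 23 libraries (horizontal axis, with line, form and library number). Boxes show the quartiles and median of 33 genes that differed at least 4-fold between replicates of parental OV-90 and of parental Kuramochi, with whiskers to the last gene within 1.5 box lengths. Points show EPCAM and CDH1. The boxes are high in OV-90 library 2, Kuramochi library 6 and the 3 parental OVSAHO libraries.

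Resistant OVSAHO had 1681 genes called among 21658 (7.76%), 851 higher (3.93%) and 830 lower (3.83%). This was fewer than in resistant OV-90 (16.1% of genes), Kuramochi (22.5%) and EFO-21 (14.3%), where the group sizes were the same except for 2 parental OV-90 libraries. At any fold, 3696 genes (17.1%) were higher and 3507 (16.2%) lower at an adjusted p under 0.05. At an unadjusted p under 0.05 in limma, 4953 of the 21658 genes were higher and 4636 lower. Counts given below for a gene list are to be read beside these shares of all genes. The 3 resistant libraries lay all on the same side of the 3 parental ones for 10474 genes (48.4%). Without the 33 genes above, 1654 genes were called, 851 higher and 803 lower. Of the 1681 called genes, 839 (49.9%) had a mean over the 6 libraries at or under 3.91, the 25th percentile of all genes. For 166 of the 851 higher genes (19.5%) the parental libraries, and for 187 of the 830 lower genes (22.5%) the resistant libraries, were all at the bottom.

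The 12 largest rises and 12 largest falls are given for called genes whose groups do not overlap and whose higher group mean exceeds 5.81, the median of all gene means. The largest rise was that of RBBP8NL, whose value was 0.024, 1.26 and 0.009 in the parental and 8.95, 8.62 and 8.71 in the resistant libraries, from the bottom of the scale to above the median of all gene means. BCHE, butyrylcholinesterase, went from 0.997, 1.86 and 0.84 to 8.81, 8.85 and 8.79, a change of 7.58 (SE 0.28, adjusted p = 5.71e-05). ZIC2, a zinc finger transcription factor of neural development, went from 2.59, 2.30 and 1.51 to 7.25, 7.26 and 7.25, a change of 5.12 (SE 0.29, adjusted p = 0.000211). In all 3 genes every resistant library was above every parental one by more than 4 on the log2 scale. LUM and DCN, lumican and decorin, are small leucine-rich proteoglycans that bind collagen fibrils, and they lie close to each other on chromosome 12. LUM changed by 4.73 (SE 0.43, adjusted p = 0.000954) and DCN by 4.22 (SE 0.16, adjusted p = 6.17e-05). GJA1, the gap junction protein connexin 43, read 1.81, 2.26 and 3.05 in parental and 6.17, 6.59 and 6.53 in resistant libraries. The remaining 6 of the 12 largest rises were DCAF4L2, MAGEB6 and TEX15, which are germline genes, DPYSL5, a neuronal protein, and the receptor genes ADRB1 (beta-1 adrenergic) and NPFFR2 (neuropeptide FF), with changes of 6.45, 5.23, 4.74, 4.54, 4.51 and 4.01. ADRB1 was uneven in the parental libraries, at 0.024, 3.28 and 2.45, and even in the resistant ones, at 6.54, 6.75 and 5.998.

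Of the 12 largest falls, 8 are in the set of 33 genes, namely IGLC2, IGLC3, IGHG1, IGHG2, IGKC, KRT6B, KRT14 and KRT6C. KRT6A, not in the set but at 8.01 in OV-90 library 2 and 1.49 in library 3, is a near-identical copy of KRT6B and KRT6C, and reads of these 3 keratins may be shared between them, as may those of IGLC2 and IGLC3 and of IGHG1 and IGHG2. The other 3 genes do not belong to these families. MAL, a membrane proteolipid of apical sorting, read 9.73, 9.63 and 9.54 in the parental and 1.35, 2.18 and 3.76 in the resistant libraries, a change of -7.20 (SE 0.58, adjusted p = 0.000686). GTSF1, a factor of the piRNA pathway in germ cells, read 7.67, 7.61 and 7.69 against 1.32, 0.91 and 1.22, with all resistant libraries at the bottom. LINC03041, a long non-coding RNA, read 6.74, 6.97 and 6.39 against 0.014, 1.21 and 0.02.

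**Figure D2:**
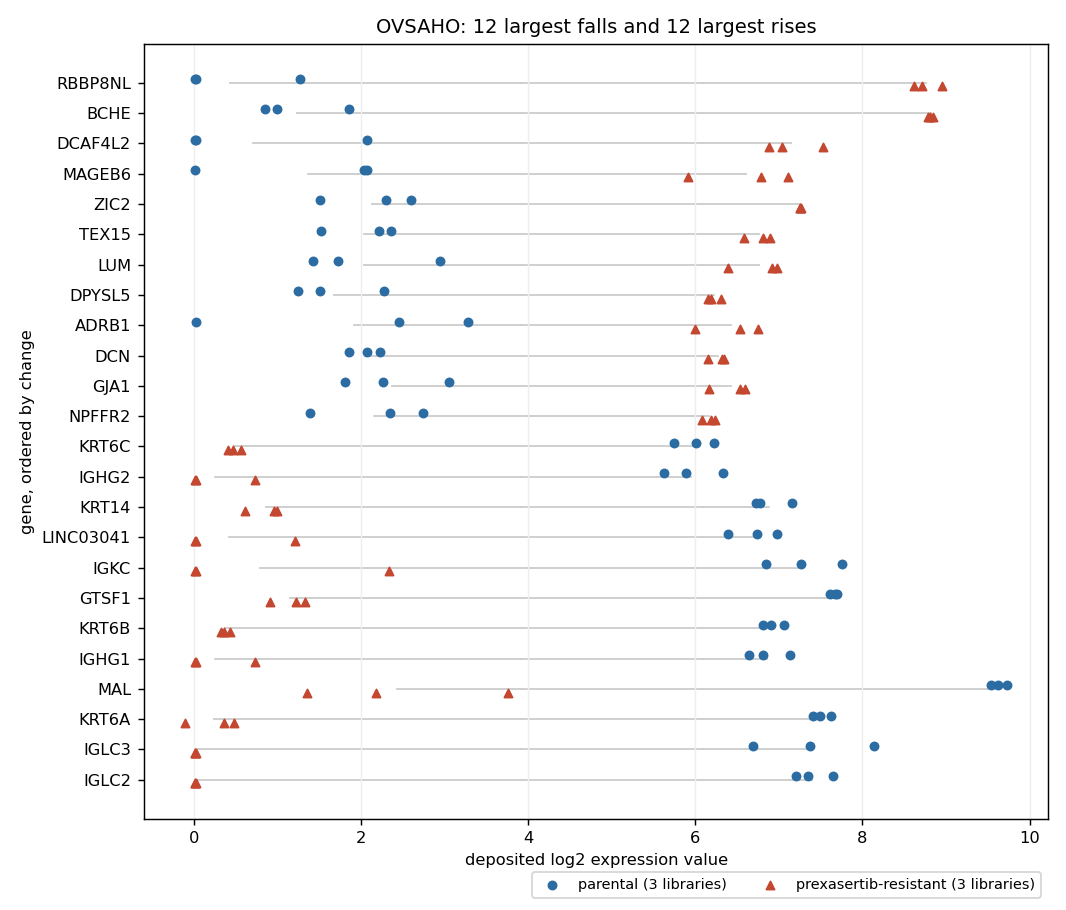
Deposited log2 values (horizontal axis) of the 12 largest falls and 12 largest rises of OVSAHO (vertical axis, 1 gene a line), with circles for the 3 parental and triangles for the 3 resistant libraries and a grey line between the group means. No gene shows overlap between the groups, which was part of the rule that chose them.

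CHEK1, the gene of the drug's target, did not pass the test. It read 5.52, 5.59 and 5.56 in the parental and 5.61, 5.63 and 5.63 in the resistant libraries, a difference of 0.066 (SE 0.079, adjusted p = 0.573). Of 28 genes of ATR-CHK1 signalling, 0 were called higher and 0 lower in limma, and 0 in the ordinary linear model. At an unadjusted p under 0.05, 13 were higher and 6 lower, beside 4953 and 4636 of all 21658 genes. At an adjusted p under 0.05 with no fold limit, 9 were higher (32.1%) and 6 lower (21.4%), against 17.1% and 16.2% of all genes. Among the latter, WEE1, the kinase that acts beside CHK1, was higher by 0.64 (adjusted p = 0.000464), CLSPN, the claspin adaptor through which ATR reaches CHK1, by 0.62 (adjusted p = 0.00147), and TIMELESS, of the fork protection complex, by 0.37 (adjusted p = 0.00232). All these are under 2-fold. CCNE1, cyclin E1, differed by -0.38 (adjusted p = 0.00541) and CDK2 by 0.54 (adjusted p = 0.00144). ATR differed by 0.12 (adjusted p = 0.265), CDC25A by 0.21 (adjusted p = 0.0504), CCNA2 by 0.12 (adjusted p = 0.0731), FBXW7, a ubiquitin ligase subunit for cyclin E, by 0.42 (adjusted p = 0.0545) and CDK1 by -0.0056 (adjusted p = 0.975), and none of these passed. The median change of the list was 0.091, beside 0.0021 over all genes.

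Genes of the replication fork leaned higher in small steps. Of 47 measured, 0 were called in either direction in limma or in the ordinary linear model, 31 were higher and 4 lower at an unadjusted p under 0.05, and 28 were higher and 2 lower at an adjusted p under 0.05 with no fold limit, with a median change of 0.27. The largest difference in the list was that of FEN1, the flap endonuclease of lagging strand synthesis, at 0.76 (adjusted p = 0.00125), chosen after its value was seen. RRM2, the small subunit of ribonucleotide reductase, was higher by 0.63 (adjusted p = 0.00211), and of the 28 genes of nucleotide supply 14 were higher and 2 lower at that limit, 16 and 3 at an unadjusted p under 0.05, and 0 were called in both models. In the list of homologous recombination and Fanconi genes, with 36 measured, 14 were higher and 2 lower without a fold limit, 16 and 2 at an unadjusted p under 0.05, and 0 were called in limma or the ordinary model. For 40 genes of mitosis and the spindle checkpoint the counts were 9 higher and 5 lower without a fold limit, 14 and 5 at an unadjusted p under 0.05 and 0 called in both models, with a median of 0.041. Against the 17.1% of all genes that were higher at any fold, the fork genes stood at 59.6% and the mitotic genes at 22.5%.

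Among 28 genes of the E2F, RB and CDK inhibitor list, 2 were called higher (7.14%) and 1 lower (3.57%), against 3.93% and 3.83% of all genes. MYCN, a MYC family transcription factor, read 2.88, 3.11 and 2.64 in the parental and 5.04, 4.44 and 4.83 in the resistant libraries, a rise of 1.90 (SE 0.22, adjusted p = 0.00217). CDK6, a kinase that phosphorylates RB, read 6.23, 6.79 and 6.73 against 7.57, 8.04 and 7.83, a rise of 1.23 (SE 0.19, adjusted p = 0.00519). RB1, the retinoblastoma protein that holds E2F factors in check, read 5.56, 5.80 and 6.01 against 4.66, 4.71 and 4.68, a change of -1.11 (SE 0.14, adjusted p = 0.00273). The groups did not overlap for any of the 3. The RB1 call rests on parental library 9, the highest, since without it the change was -0.997 (adjusted p = 0.00753), just under 2-fold. At any fold, 14 members were higher (50%) and 2 lower (7.14%), against 17.1% and 16.2% of all genes.

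Many epithelial genes were lower in resistant OVSAHO. Of 50 genes of epithelial junctions and identity, 19 were called lower and 1 higher, against 3.83% and 3.93% of all genes, with a median change of -0.69. EPCAM, the epithelial cell adhesion molecule, read 8.76, 8.82 and 8.91 in the parental and 5.83, 5.79 and 5.83 in the resistant libraries, a change of -3.01 (SE 0.054, adjusted p = 1.23e-05). CDH1, E-cadherin of adherens junctions, read 8.09, 8.07 and 8.27 against 6.43, 6.45 and 6.53, a change of -1.67 (SE 0.069, adjusted p = 8.97e-05). Neither gene showed overlap, and both falls were far larger than the spread within a group. The largest falls of the list were in membrane serine proteases of epithelia. TMPRSS4 read 4.94, 4.99 and 5.13 against 0.63, 0.25 and 0.71, PRSS8 (prostasin) 6.21, 6.12 and 6.04 against 2.49, 2.45 and 1.97, and ST14 (matriptase) 4.15, 4.04 and 4.06 against 0.71, -0.19 and 1.06. The resistant TMPRSS4 and ST14 libraries were at the bottom of the scale. AP1M2, an adaptor subunit for sorting to the basolateral membrane, read 6.41, 6.45 and 6.03 against 3.11, 3.10 and 3.27, a change of -3.14 (SE 0.16, adjusted p = 0.00016). KRT7, a keratin of simple epithelia, fell by 1.32 (adjusted p = 4e-05) from 11.40, 11.37 and 11.44 to 10.13, 10.01 and 10.10, and so stayed far above the median gene. GRHL1, a grainyhead transcription factor, was the member called higher, and 0 members were without parental library 7 or without resistant library 19. With genes of low mean left out, 12 members were called lower and 0 higher.

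The fall did not take in every junction gene. Members that were higher at an adjusted p under 0.05 and under 2-fold included CLDN1 of tight junctions (0.81), TJP1, the scaffold ZO-1 (0.35), and the desmosomal cadherins DSG2 (0.71) and DSC2 (0.72), while GRHL2 differed by 0.73 (adjusted p = 0.634). These were chosen after their values were seen. The 6 members higher and 30 lower at any fold compare with 17.1% and 16.2% of all genes.

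For the epithelial genes called lower, the 250 bases before their start sites were read. They came from RefSeq for GRCh38.p14, which is another build than that of the expression table. Of the 19 genes called lower, 10 matched the promoter table, with 16 start sites in all. CDH1, EPCAM, KRT7, KRT19, OVOL2, PKP3, PRSS8, ST14 and TMPRSS4 had no entry. The motif searched was the E-box CAGGTG on either strand (CACCTG when read on the other), the letters to which repressors of the ZEB and SNAI families are known to bind in epithelial promoters. It was present for 8 of the 10 genes, and in 62.5% of their 16 windows, against 17.5% of all 35116 windows and 21.4% of the 14340 genes of the expression table with a promoter entry. It was also present for 11 of 19 genes (57.9%) of the same list that were not called lower. The share is thus high over the list and not only over the members called lower. Members not called include genes that fell by less, since 39 of the 50 changed below 0 and 30 were lower at any fold. Whether the motif goes with the fall cannot be read from this split. A match describes letters and not a bound site, and whether these repressors act on these genes in OVSAHO was not tested. The 3 windows with the most matches are shown, 5′ to 3′ on the gene's strand and ending at the base before the start site, with the motif in capitals. They belong to CRB3, a polarity protein of the apical membrane, CLDN7, a tight junction claudin with a second start site whose window held no match, and AP1M2. CRB3 lies on the plus strand at chr19:6464021-6464270 and held 5 matches, CLDN7 on the minus strand at chr17:7262479-7262728 held 4, and AP1M2 on the minus strand at chr19:10587313-10587562 held 3.
CRB3: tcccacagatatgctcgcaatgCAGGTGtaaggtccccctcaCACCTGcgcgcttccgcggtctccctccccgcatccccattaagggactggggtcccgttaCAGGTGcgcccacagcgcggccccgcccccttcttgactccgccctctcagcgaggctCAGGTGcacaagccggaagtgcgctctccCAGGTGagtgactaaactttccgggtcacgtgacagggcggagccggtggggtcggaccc
CLDN7: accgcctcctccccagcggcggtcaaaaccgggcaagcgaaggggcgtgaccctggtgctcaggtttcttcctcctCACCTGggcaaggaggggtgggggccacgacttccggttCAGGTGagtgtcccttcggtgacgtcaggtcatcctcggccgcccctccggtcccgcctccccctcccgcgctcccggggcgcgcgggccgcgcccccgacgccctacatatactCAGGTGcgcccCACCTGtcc
AP1M2: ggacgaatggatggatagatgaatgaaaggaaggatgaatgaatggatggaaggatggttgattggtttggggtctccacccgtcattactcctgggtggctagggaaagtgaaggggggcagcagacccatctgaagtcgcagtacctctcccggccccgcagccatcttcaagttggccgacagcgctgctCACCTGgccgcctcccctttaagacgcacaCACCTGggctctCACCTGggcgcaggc
In the libraries, CRB3 read 3.45, 3.45 and 3.89 in parental and 2.35, 2.49 and 2.53 in resistant cells, and CLDN7 read 5.74, 5.66 and 5.596 against 3.78, 2.86 and 2.68. All resistant libraries lay below all parental ones for the 3 genes whose windows are shown, as they did for 48.4% of all genes in either direction.

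Genes of the Müllerian and ovarian cancer list fell in part. Of 36 measured, 12 were called lower (33.3%) and 2 higher (5.56%), against 3.83% and 3.93% of all genes, with a median of -0.10. MUC16, the mucin that carries the CA-125 antigen, read 6.74, 7.002 and 6.83 in the parental and 2.35, 2.19 and 2.27 in the resistant libraries, a change of -4.59 (SE 0.13, adjusted p = 3.39e-05). LYPD1 read 6.74, 6.78 and 6.33 against 2.82, 2.56 and 2.52, and CRABP2, a carrier of retinoic acid, 7.75, 7.76 and 7.71 against 4.73, 4.32 and 4.597. In all 3 genes each resistant library lay far below each parental one. CAPS, calcyphosine, fell by 2.43 (adjusted p = 3.4e-05). WFDC2 stayed high, at 12.64, 12.56 and 12.61 against 11.69, 11.55 and 11.53, and its fall of 1.01 was under 2-fold without parental library 7 (-0.997), resistant library 20 (-0.996) or resistant library 21 (-0.98). With low genes left out the median was -0.39 and 0 members were higher. Among the 10 markers of an ovarian serous line, MUC16, EPCAM, KRT7 and WFDC2 were called lower and 0 higher in limma and the ordinary model, with 1 higher and 7 lower at an unadjusted p under 0.05. Summed on the linear scale these markers ranged from 16134 to 17113 in the parental and from 11312 to 12307 in the resistant libraries, and no marker was at the bottom in either group.

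Of 47 genes of stratified keratins and the cornified envelope, 26 were called lower and 0 higher in limma, with 24 and 0 in the ordinary model and 32 lower and 1 higher at an unadjusted p under 0.05. The 26 are 55.3% of the list, against 3.83% of all genes, and the median change was -1.44. Of these 47 genes, 5 are in the set of 33 described above, and 12 were called lower once genes of low mean were left out. SPRR2A, a cornified envelope precursor, read 6.17, 5.25 and 5.50 in the parental libraries and 0.014, 0.015 and 0.02 in the resistant ones, all at the bottom, and it also stood at 5.95 in Kuramochi library 6 against 0.0097 and 0.015 in libraries 4 and 5. Markers of other cell types moved beside these genes. Of 10 B and plasma cell markers 5 fell (50%) and 1 rose (10%). The 5 are immunoglobulin genes of the set of 33. The rise was not called under the ordinary linear model, nor when any 1 library other than resistant library 21 was left out. The summed level of the 10 markers went from 536 to 845 in the parental to 28.9 to 42.6 in the resistant libraries. Of 7 T and NK cell markers 4 fell, with sums of 69.3 to 125 and 24.4 to 30.0, CD8A being at the bottom in all resistant libraries. Under the ordinary linear model 2 of these 7 were called, as when parental library 7 or resistant library 19 or 21 was left out, and CD8A read 5.36 in OV-90 library 2 and 0.18 in library 3. Of 7 macrophage markers 3 fell, with sums of 201 to 275 and 98.7 to 111, among them PTPRC, the CD45 antigen of blood cells, at 3.15, 4.09 and 3.05 against 0.53, 0.41 and 0.70. Their part in the fall of the keratins was not tested.

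Matrix and mesenchymal genes were called higher more often than lower. Of 46 measured, 12 were called higher (26.1%) and 2 lower (4.35%), against 3.93% and 3.83% of all genes. The median was 0.50, and 7 were higher with low genes left out. LOX, lysyl oxidase, which cross-links collagen and elastin, read 5.25, 5.04 and 5.24 in the parental and 7.63, 7.77 and 7.76 in the resistant libraries, a rise of 2.54 (SE 0.086, adjusted p = 5e-05). NID1, a basement membrane protein, rose by 1.98 (adjusted p = 0.000937) from the bottom of the scale, and THBS1, thrombospondin 1, by 1.30 (adjusted p = 0.00132). LUM and DCN were the largest rises in the list. Genes of the contractile cytoskeleton split, since ACTA2, smooth muscle actin, rose by 1.24 (adjusted p = 0.00342) and MYL9, a myosin light chain, fell by 1.70 (adjusted p = 3.66e-05). The other member called lower was LOXL1, a relative of LOX, at -1.39 (adjusted p = 3.39e-05).

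**Figure D3:**
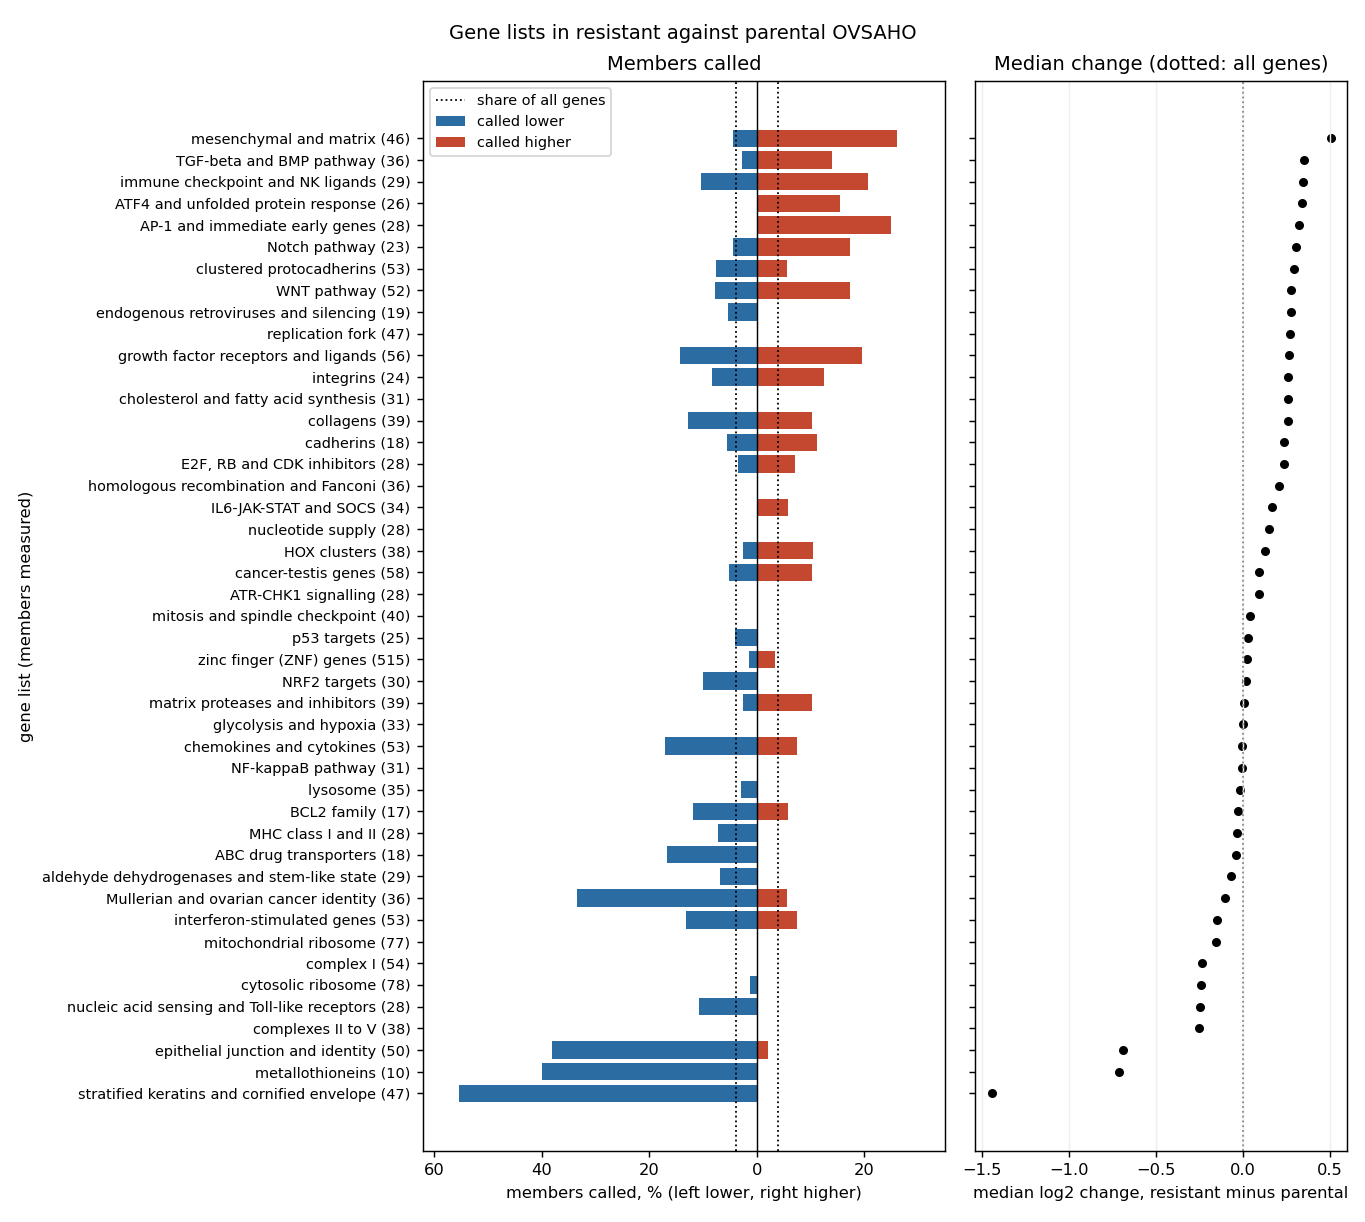
Left, share of the members of each pathway or family list called higher (right of 0) or lower (left of 0) in resistant OVSAHO, in percent of members measured (number in brackets), with dotted lines at the share of all genes (3.93% and 3.83%). Right, the median log2 change of each list, dotted line at the median of all genes. Stratified keratins, metallothioneins and epithelial genes have the lowest medians among these lists, and the mesenchymal and matrix list has the highest. The lists of cell type markers are not plotted.

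Collagens split. Of 39 measured, 4 were called higher (10.3%) and 5 lower (12.8%), against 3.93% and 3.83% of all genes. COL11A1, a minor fibrillar collagen, read 0.87, 0.94 and 0.83 in the parental libraries, at the bottom, and 4.99, 5.15 and 5.23 in the resistant ones. COL3A1, a major fibrillar collagen, read 3.61, 3.37 and 3.53 against 1.41, 1.42 and 1.21, and COL6A3, a chain of microfibrillar collagen VI, 2.79, 2.07 and 1.79 against 0.014, 0.015 and 0.02, both at the bottom in the resistant cells. COL6A3 also differed between replicates of parental OV-90, at 4.16 in library 2 and 0.18 in library 3. The COL1A2 fall of 4.78 belongs to the set of 33 genes. With low genes left out, 0 collagens were called higher and 1 lower. The fibroblast markers split in the same way, with LUM and DCN higher and 3 collagens lower of 7, and summed levels of 139 to 158 in parental and 247 to 271 in resistant libraries. For endothelium 1 of 7 markers was called, CDH5, which was at the bottom in both groups.

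Of 24 integrins, 3 were called higher (12.5%) and 2 lower (8.33%), against 3.93% and 3.83% of all genes. ITGA1, a collagen receptor chain, read 3.43, 3.58 and 3.89 in the parental and 5.75, 5.93 and 5.98 in the resistant libraries, and ITGA5, the fibronectin receptor chain, 3.44, 3.53 and 3.64 against 4.96, 4.90 and 4.98. ITGB4, the hemidesmosome chain that pairs with alpha 6, went the other way, at 7.16, 7.17 and 7.25 against 5.41, 5.50 and 5.54, and ITGB6, an epithelial chain, fell to the bottom at 0.99, 0.77 and 0.79 from 3.47, 3.17 and 3.90. Of 39 matrix proteases and inhibitors 4 rose (10.3%) and 1 fell (2.56%). The rises included ADAMTS3 (1.27), ADAMTS10 (1.30) and MMP28 (1.77), and MMP12 fell by 1.86 to the bottom of the scale.

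Growth factor receptors and their ligands had 11 members called higher (19.6%) and 8 lower (14.3%) of 56, against 3.93% and 3.83% of all genes. After leaving out low genes the counts were 3 and 3. IGF1R, the receptor of insulin-like growth factors, read 2.43, 2.42 and 2.76 in the parental and 3.91, 4.17 and 4.34 in the resistant libraries, a rise of 1.60 (SE 0.19, adjusted p = 0.00236). Its ligand IGF1 read 4.002, 4.57 and 3.92 against 2.57, 1.71 and 0.02, and this fall of 2.73 missed the threshold when parental library 7, 8 or 9 or resistant library 20 was left out (adjusted p = 0.061, 0.075, 0.0538 and 0.0607), and under the ordinary linear model (0.0776). EPHA5, an ephrin receptor, rose by 2.97 and EREG, the EGFR ligand epiregulin, by 2.75, and both missed the threshold under the ordinary linear model (adjusted p = 0.0522 and 0.0529). KITLG, the ligand of KIT, rose by 1.21 (adjusted p = 0.00643). NRG3, an ERBB4 ligand, fell by 2.49 (adjusted p = 0.00141) to the bottom.

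AP-1 and other immediate early genes, which growth factor signalling through ERK induces, were called higher in 7 of 28 cases and lower in 0 by limma. The counts were 6 and 0 in the ordinary model and 18 and 2 at an unadjusted p under 0.05. The 7 are 25% of the list, against 3.93% of all genes. EGR1 read 5.62, 5.99 and 6.04 in the parental and 8.17, 8.11 and 8.11 in the resistant libraries, a rise of 2.25 (SE 0.12, adjusted p = 0.000169). DUSP4, a phosphatase that switches off ERK, read -0.19, -0.049 and 1.33, all at the bottom, against 3.67, 3.43 and 3.79. SPRY4, an inhibitor of receptor kinase signalling, rose by 1.47 (adjusted p = 0.00599). An inducible transcription factor and inhibitors of the pathway were thus higher side by side. EGR3 read 0.024, 2.07 and 0.009 against 4.03, 4.77 and 3.18, and without resistant library 20 its rise was 2.91 (adjusted p = 0.0517). Its adjusted p under the ordinary linear model was 0.0586.

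In the WNT pathway 9 of 52 members were called higher (17.3%) and 4 lower (7.69%), against 3.93% and 3.83% of all genes. Once low genes were left out 4 were higher. LEF1, the transcription factor that carries beta-catenin to DNA, read 3.88, 4.10 and 4.17 in the parental and 6.67, 6.63 and 6.60 in the resistant libraries, a rise of 2.59 (SE 0.11, adjusted p = 0.000106). NOTUM, a secreted enzyme that inactivates WNT ligands, read 2.17, 1.15 and 1.09 against 3.83, 4.14 and 3.90. DKK2, a secreted modulator of LRP co-receptors, went from 5.47, 5.30 and 5.95 to 3.30, 3.11 and 2.74, and RSPO3, an R-spondin that strengthens WNT signals, from 3.82, 3.73 and 4.70 to 2.31, 1.52 and 1.65. The ligand gene WNT2 rose by 2.17 (adjusted p = 0.000871), and of the ligands WNT10B, WNT4, WNT5B and WNT8B were also called higher and WNT10A and WNT9A lower.

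Of 23 Notch pathway genes, 4 were called higher (17.4%) and 1 lower (4.35%), against 3.93% and 3.83% of all genes. NOTCH3 read 5.93, 5.99 and 6.02 in the parental and 7.64, 7.82 and 7.65 in the resistant libraries, a rise of 1.72 (SE 0.068, adjusted p = 7.54e-05). HES4 and HEY1, transcriptional targets of Notch, rose by 1.61 and 1.27 (adjusted p = 0.00607 and 0.0135). DLK2, a non-canonical ligand, rose by 1.10, which was 0.97 without parental library 9. The 36 genes of TGF-beta and BMP signalling had 5 higher (13.9%) and 1 lower (2.78%). TGFB1 read 5.94, 6.01 and 5.84 against 7.60, 7.43 and 7.35, a rise of 1.53 (SE 0.088, adjusted p = 0.000232), and the secreted inhibitors FST (follistatin) and CHRD (chordin) rose by 1.25 and 1.12. INHBB, an activin subunit, fell by 2.34 (adjusted p = 0.00777).

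The immune genes of OVSAHO moved in both directions. SOCS2, a feedback inhibitor of cytokine receptors, read 3.06, 3.21 and 3.20 in the parental and 6.55, 6.62 and 6.41 in the resistant libraries, a rise of 3.37 (SE 0.12, adjusted p = 5.64e-05). It was 1 of 2 members called among 34 of the IL6-JAK-STAT list, with CNTFR (1.16). These are 5.88% of the list, against 3.93% of all genes called higher. Of 31 genes of the NF-kappaB pathway, 0 were called in either direction in limma and the ordinary model. At an unadjusted p under 0.05, 9 were higher and 6 lower, beside 4953 and 4636 of all 21658 genes. Chemokines and cytokines had 4 members called higher (7.55%) and 9 lower (17%) of 53, against 3.93% and 3.83% of all genes. CCL5, which attracts T cells, read 4.91, 5.52 and 2.79 against 0.68, 0.46 and 0.70, the latter at the bottom, and in parental OV-90 it read 5.25 in library 2 and 1.10 in library 3. CXCL12 read 4.05, 3.75 and 3.95 against 1.27, 1.89 and 1.96. CXCL5 and CXCL14 rose by 2.06 and 1.72, and IL33, an alarmin, by 1.58.

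Interferon-stimulated genes had 4 called higher (7.55%) and 7 lower (13.2%) of 53, against 3.93% and 3.83% of all genes. IFI16, a sensor of nuclear DNA, read 3.28, 3.42 and 3.76 in the parental and 5.47, 5.53 and 5.54 in the resistant libraries, a rise of 2.02 (SE 0.16, adjusted p = 0.00066). GBP2, a guanylate-binding GTPase, read 5.14, 5.08 and 5.22 against 2.95, 2.98 and 3.03, and IFI27 5.40, 5.29 and 5.13 against 3.07, 2.97 and 3.24. MX2, an antiviral GTPase, fell by 1.94 to the bottom. Of 28 genes of nucleic acid sensing and Toll-like receptors, 3 were called lower (10.7%) and 0 higher in limma, with 2 and 0 in the ordinary model. At an unadjusted p under 0.05, 7 were lower and 4 higher, beside 4636 and 4953 of all 21658 genes. IFIH1, the RNA sensor MDA5, fell by 1.23 (adjusted p = 0.00134) and TLR2 by 1.71 (adjusted p = 0.00769). TLR4 fell by 2.57 to the bottom, and missed the threshold when resistant library 19, 20 or 21 was left out (adjusted p = 0.0524, 0.0588 and 0.0578). In the MHC list of 28 genes, HLA-DQA1 (-3.04, to the bottom, with 5.47 in OV-90 library 2 and 0.18 in library 3) and CD74, the class II chaperone (-1.51, adjusted p = 0.0024), were called lower and 0 higher in limma and the ordinary model, with 6 higher and 7 lower at an unadjusted p under 0.05. The share called lower was 7.14%, against 3.83% of all genes. Of 29 immune checkpoint and NK ligand genes 6 rose (20.7%) and 3 fell (10.3%). IDO1, the tryptophan-degrading enzyme, went from 1.38, 1.17 and 1.04, at the bottom, to 3.88, 4.18 and 3.99, and ILDR2 from 3.08, 2.60 and 3.06 to 5.599, 5.47 and 5.83. ULBP2, a ligand of the NK receptor NKG2D, rose by 1.81 and VTCN1, the B7-H4 checkpoint ligand, fell by 2.02 (adjusted p = 0.00121).

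The genes DDX53, DDX60, EREG, CXCL14, CXCL5, IL33, KITLG, THBS1, GDF15, SOCS2, MAGEB6, NID1, ILDR2, IGF1R and ERVV-2 were picked by the study as immune genes on these same libraries, so their direction is not independent evidence. All but ERVV-2 were called higher here. ERVV-2, an endogenous retroviral envelope gene, read 0.024, 0.023 and 1.79 in the parental and 1.63, 3.04 and 2.41 in the resistant libraries (adjusted p = 0.0718). DDX60, an antiviral helicase, rose by 1.05, but by 0.90 without parental library 7, and missed the threshold without resistant library 20 (adjusted p = 0.0501). In the list of 19 endogenous retroviral and silencing genes 1 was called lower (5.26%, against 3.83% of all genes) and 0 higher. ERVMER34-1, another retroviral envelope gene, read 5.03, 5.16 and 5.14 against 1.45, 1.44 and 1.97, a change of -3.49 (SE 0.20, adjusted p = 0.000229).

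Cancer-testis genes, normally silent outside the germline, had 6 of 58 members called higher (10.3%) and 3 lower (5.17%), against 3.93% and 3.83% of all genes. The highest were the germline genes named among the largest rises, with DDX53, which went from 0.024, 0.023 and 0.009 to 1.63, 3.04 and 3.45. PAGE5 went the other way, from 7.49, 7.03 and 6.86 to 3.23, 2.84 and 2.89. MAGEA9 and MAGEA9B are near-identical copies and their falls are uncertain. Of 38 HOX genes 4 rose and 1 fell. HOXC13 read 3.32, 3.53 and 3.37 in the parental and 7.32, 7.30 and 6.86 in the resistant libraries, a rise of 3.75 (SE 0.16, adjusted p = 9.62e-05). HOXC11 rose by 1.34 from the bottom. HOXA13 rose by 1.86 and was not called when parental library 7 or resistant library 19 or 21 was left out (adjusted p = 0.0507, 0.0588 and 0.0697). Of 53 clustered protocadherins, 3 rose (5.66%) and 4 fell (7.55%), against 3.93% and 3.83% of all genes. The largest fall called was that of PCDHB2 (-1.51) and the largest rise called that of PCDHB12 (1.14), members of the same cluster. Of 515 zinc finger genes, 17 rose (3.30%) and 7 fell (1.36%), both under the share of all genes. ZNF716 went from 2.91, 2.54 and 4.11 to 6.47, 6.83 and 6.64.

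Genes of oxidative phosphorylation and of ribosomes were lower in small steps. At an adjusted p under 0.05 with no fold limit, 16.2% of all genes were lower and 17.1% higher. Of 54 genes of complex I, pseudogenes included, 33 were lower (61.1%) and 1 higher (1.85%) at that limit. Of 38 genes of complexes II to V, 29 were lower (76.3%) and 0 higher. The medians of the complex I and complexes II to V lists were -0.23 and -0.25. In both lists 0 were called in limma or the ordinary model, and at an unadjusted p under 0.05 the counts were 36 and 1, and 31 and 0. The largest single difference among intact complex I genes was that of NDUFB8, at -0.67 (adjusted p = 0.000311), chosen after its value was seen. Of 77 mitochondrial ribosome genes 30 were lower (39%) and 5 higher (6.49%) at any fold, with 0 called in both models and 39 lower and 6 higher at an unadjusted p under 0.05. Of 78 cytosolic ribosome genes 54 were lower (69.2%) and 1 higher (1.28%) at any fold. RPS28 was the member called, with -1.05, and -0.91 without parental library 7. Since quantile normalization fixes the distribution of each library, these are differences relative to the other genes. Cholesterol and fatty acid synthesis leaned the other way, with 17 of 31 genes higher (54.8%) and 3 lower (9.68%) at any fold. The median was 0.26, with 0 called in both models and 17 higher and 6 lower at an unadjusted p under 0.05.

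Among stress genes, 4 of 26 members of the ATF4 and unfolded protein response list were called higher (15.4%, against 3.93% of all genes) and 0 lower in limma. The counts were 3 and 0 in the ordinary model and 16 and 3 at an unadjusted p under 0.05. GDF15, a secreted stress cytokine, read 7.67, 7.87 and 7.97 in the parental and 9.02, 8.84 and 8.91 in the resistant libraries, and ATF3 4.43, 4.35 and 4.44 against 5.78, 5.58 and 5.70, with rises of 1.09 and 1.28 (adjusted p = 0.000719 and 0.000788). VLDLR, a lipoprotein receptor, rose by 1.42 (adjusted p = 0.00192). Metallothioneins, which bind zinc and copper, were called lower in 4 of 10 cases and higher in 0, in both models, with 6 lower and 0 higher at an unadjusted p under 0.05. MT1F read 9.76, 9.58 and 9.44 against 8.14, 8.203 and 8.11, and MT3 6.49, 6.01 and 6.31 against 3.68, 3.27 and 4.06. Of 30 targets of NRF2, the transcription factor of the oxidative stress response, 3 fell (10%, against 3.83% of all genes). These are the aldo-keto reductases AKR1C1, AKR1C2 and AKR1B10, of which AKR1C1 and AKR1C2 are near-identical. NQO1, a standard NRF2 target, differed by 0.22 (adjusted p = 0.078). Of 25 p53 targets 1 was called, TP53INP1, which fell by 1.30 (adjusted p = 0.00149). This is 4% of the list, against 3.83% of all genes. In the BCL2 family of 17, 1 was called higher (5.88%) and 2 lower (11.8%). HRK, a pro-apoptotic BH3 protein, rose by 1.98 (adjusted p = 0.00284), and BIK, another, fell by 1.43 (adjusted p = 0.000724).

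Genes linked to drug response were mixed. SLFN11, a helicase-like protein that blocks stressed replication forks and sensitizes cells to agents that damage DNA, read 4.97, 4.80 and 5.24 in the parental and 1.34, 2.25 and 2.17 in the resistant libraries, a change of -3.08 (SE 0.29, adjusted p = 0.00111). Every resistant library was lower by more than 2 on the log2 scale. The drug efflux pump ABCG2 read 3.13, 2.97 and 3.12 against 2.78, 3.37 and 3.30, with a difference of 0.075 (adjusted p = 0.823) and overlapping groups. Of 18 ABC transporters 3 fell, of which ABCA4 changed by -1.68 (SE 0.14, adjusted p = 0.000788), ABCA13 belongs to the set of 33 genes, and ABCA12 missed the threshold when parental library 8 or 9 or any 1 resistant library was left out (adjusted p = 0.0768, 0.113, 0.112, 0.121 and 0.119). The 3 falls are 16.7% of the list, against 3.83% of all genes. In this list 0 rose in limma and the ordinary model, with 3 higher and 6 lower at an unadjusted p under 0.05. SOX2, a stem cell transcription factor, read 9.37, 9.41 and 9.48 against 7.83, 8.39 and 8.39, and ALDH1A3, an aldehyde dehydrogenase of retinoic acid synthesis, fell by 1.24 (adjusted p = 0.0112). ATP6V1B1, a proton pump subunit, was the member called of 35 lysosome genes, at 7.44, 7.31 and 7.23 against 4.99, 4.79 and 4.70.

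Neighbouring genes leaned the same way in several stretches of the genome. Positions are those of GENCODE on GRCh37, and windows of 20 neighbours, taken among genes whose mean exceeded 3.91, were described by their median change, with no test. Of 14327 windows 195 had a median of at least 0.4 in size, in 21 runs, 14 higher and 7 lower. The runs with the most genes lay on the short arm of chromosome 2, where 3 runs followed each other. From RNASEH1-DT to RAB10 (3606009 to 26360323) 71 genes had a median of 0.45, and 59 of them (83.1%) were above 0. RRM2 is among them, MYCN lies within the interval but had too low a mean to be counted, and the largest change of the run was that of KCNF1 at 1.93. From GAREM2 to PPM1G (26395957 to 27632458) all 26 genes were above 0, with a median of 0.37, and DPYSL5 had the largest change. From LBH to ATP6V1E2 (30454400 to 46769716) 66 genes had a median of 0.41, and PLEKHH2 had the largest change at 2.20. EPCAM lies beyond the end of the last run on the same arm. The medians of these runs in the other lines ranged from -0.40 to 0.31.

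On the long arm of chromosome 18 the run from ATP5F1A to RAB27B (43660214 to 52562747) had 31 genes with a median of -0.39, of which 3 (9.68%) were above 0. Upstream on the same chromosome the run from TTC39C to KLHL14 (21572737 to 30352986) had 23 genes with a median of 0.31. On chromosome 10 the median of all 598 genes was -0.21, the lowest of any chromosome, and 28.1% of its genes were above 0. Its run from FGFR2 to ZRANB1 (123237846 to 126676758) had 24 genes with a median of -0.39. The FGFR2 change, the largest of that run, was -1.31 (SE 0.062, adjusted p = 0.000135). On chromosome 19 runs from KMT2B to ZNF565 (36208875 to 36737159) and from DPF1 to ZFP36 (38701646 to 39900052) had medians of -0.40 and -0.36, and in OV-90 and Kuramochi the same genes had medians of -0.28 to -0.38. Chromosome 21 had the highest median, 0.22 over 146 genes. In windows of 10 genes the medians reached 0.85 and -1.26. Copy number was not measured in these libraries.

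**Figure D4:**
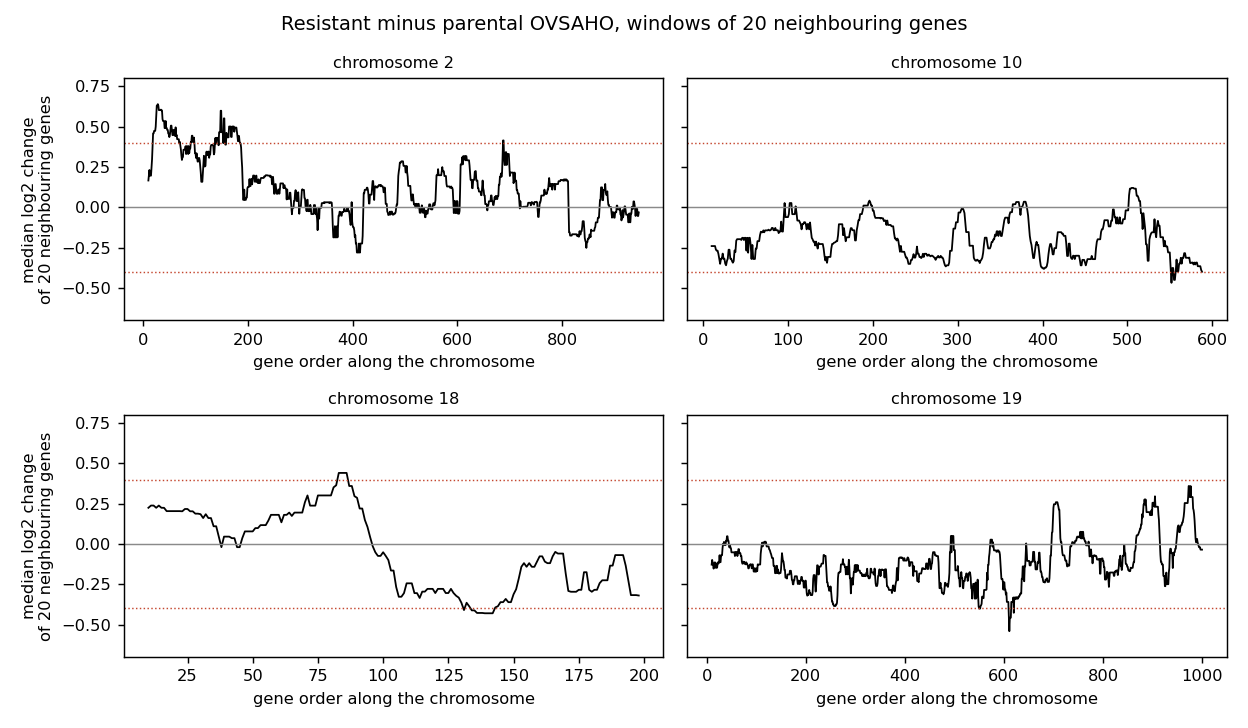
Median log2 change, resistant minus parental OVSAHO, of windows of 20 neighbouring genes (vertical axis) by gene order along chromosomes 2, 10, 18 and 19 (horizontal axis), with dotted lines at 0.4 and -0.4. The start of chromosome 2 lies above 0.4, most of chromosome 10 lies below 0, and chromosome 18 changes sign along its length.

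Whether a change was larger in OVSAHO than in the other lines was tested in a fit of all 23 libraries, as the OVSAHO change minus the mean change of OV-90, Kuramochi and EFO-21. At an adjusted p under 0.05 and a difference of at least 1 on the log2 scale, 2328 genes were called (10.7%), 1239 higher (5.72%) and 1089 lower (5.03%). BCHE changed by 0.53 in OV-90, -3.73 in Kuramochi and 0.21 in EFO-21, so its rise in OVSAHO differed from their mean by 8.58 (SE 0.20, adjusted p = 2.47e-15). MAL changed by 1.62, 4.004 and -1.87 in these lines, a difference of -8.45 (SE 0.41, adjusted p = 5.55e-11). Parental BCHE means were 5.51 in OV-90, 5.72 in Kuramochi and 8.26 in EFO-21 against 1.23 in OVSAHO, and resistant MAL means were 10.35, 11.33 and 7.73 against 2.43.

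**Figure D5:**
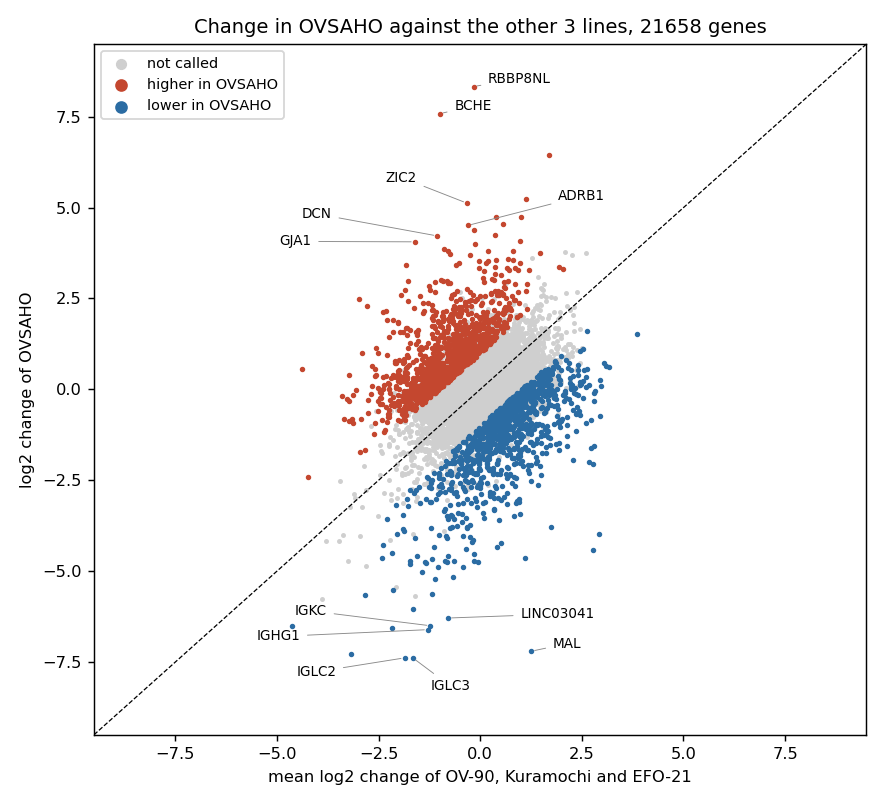
Log2 change of each of 21658 genes in OVSAHO (vertical axis) against the mean log2 change of OV-90, Kuramochi and EFO-21 (horizontal axis), with the dashed line where both are equal. Colours mark the 1239 genes called higher and the 1089 called lower in OVSAHO by the test of the difference, and the 6 largest in each direction are named.

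The checkpoint and tumour genes described above compared with the other lines as follows. SLFN11 changed by 1.497 in OV-90, 0.79 in Kuramochi and 0.57 in EFO-21, and the OVSAHO fall differed from their mean by -4.04 (adjusted p = 5.47e-08). For CHEK1 the difference was -0.79 (adjusted p = 1.18e-07), past the p threshold and under 1 in size, with changes of -0.10, 2.63 and 0.035 in OV-90, Kuramochi and EFO-21. This CHEK1 difference rests on Kuramochi. WEE1 differed by -0.005 (adjusted p = 0.977) and did not pass. RB1 differed by -1.53 (adjusted p = 0.000176), with changes of 1.19 in OV-90, -0.33 in Kuramochi and 0.41 in EFO-21. The rises of CDK6 and MYCN were each matched in another line. CDK6 changed by 1.32 in OV-90, 0.71 in Kuramochi and -4.17 in EFO-21, so its difference of 1.95 (adjusted p = 0.00206) from their mean rests on EFO-21. MYCN changed by 0.58, -2.26 and 2.08 in the same order, and its difference of 1.76 (adjusted p = 3.74e-05) rests on Kuramochi. LEF1 differed by 4.53 (adjusted p = 6.95e-12), with changes of -0.47, -5.25 and -0.10. MUC16 differed by -3.80 (adjusted p = 2.45e-10), with changes of -0.43, -2.33 and 0.39. Epithelial genes were lower in other lines too. The median of the list was -0.69 in OVSAHO, -1.63 in Kuramochi, -0.52 in EFO-21 and -0.40 in OV-90, and 10 of its 50 members were called higher and 7 lower in the difference. EPCAM was among the 7, with -1.69 (adjusted p = 4.01e-09), and its change was 0.029 in OV-90, -3.78 in Kuramochi and -0.21 in EFO-21. Of the immune genes picked by the study, ILDR2 rose in OVSAHO and changed by -0.56 in OV-90, -2.65 in Kuramochi and -0.46 in EFO-21, a difference of 3.94 (adjusted p = 7.22e-09). The SOCS2 rise differed from the mean of the other lines by 1.44 (adjusted p = 0.000158), but at 4.29 the change in Kuramochi was larger than in OVSAHO, with 0.31 in OV-90 and 1.19 in EFO-21. For IL33 (0.0003, adjusted p = 0.999), NID1 (0.025, adjusted p = 0.956) and THBS1 (-0.13, adjusted p = 0.747) the difference did not pass.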

How the data were processed

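The libraries were poly(A)-selected RNA of cultured cells, sequenced as stranded paired reads. Per the labels and the methods of the study, the authors aligned reads to GRCh37 (hg19), left out exons with few reads, summarized exons to genes with a robust linear model (16448 genes) or a mean log2 value (5210 genes) and quantile normalized the libraries. The deposited values are log2 expression values per gene, with no counts, so sequencing depth is unknown here and counting error cannot be stated. Columns were matched to samples by the line and form in their names. Some items are not reported here.

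Differences were fitted with limma 3.58.1 in R 4.3.3 (moderated, with a mean-variance trend), on the 6 OVSAHO libraries for the resistant against the parental form and on all 23 for the comparison with the other lines, with Benjamini-Hochberg adjustment over 21658 genes. The fits were tested on simulated data. With 3 libraries against 3, an exact permutation test of a single value cannot go under 0.1, so none was run. Symbols were known for 20745 genes (95.8%) and positions (GENCODE on GRCh37) for 19359.

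The genes and lists were chosen with earlier results of these data known. The rule named the 12 largest rises and 12 largest falls among genes with no overlap between the groups and a higher group mean above 5.81, up to 4 called members of each list with the largest changes, the checkpoint genes and the immune genes that the study picked, the 6 largest differences from other lines in each direction, and the ends and the largest change of each run of neighbouring genes. ACTA2, CD79A, CLDN1, CLDN7, CRB3, DSC2, DSG2, FEN1, GRHL1, GRHL2, H2BC10, H2BC13, LOXL1, MYL9, NDUFB8, NQO1, PAX8, SNORD3A, TJP1 and the WNT ligands were named outside it, after their values were seen.

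Alternatives were 1 fit of 23 libraries, no trend, an ordinary linear model, a filter on low means (genes above the 25th percentile, the "low genes left out" of the text), recentred libraries, other fold thresholds, each other line alone, windows of 10 genes and leaving out each library.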

Additional observations from a re-analysis of the deposited data

Results flagged for a closer look

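The change on resistance differed between OVSAHO and the mean of OV-90, Kuramochi and EFO-21 for 2328 genes by the limma test of the difference itself, which is what set the genes of this paragraph apart. Among genes with a higher group mean above 5.81, the median of all gene means, the largest positive differences were those of BCHE (8.58) and RBBP8NL (8.49), followed by GJA1 (5.67), ZIC2 (5.45), DCN (5.28) and ADRB1 (4.81), all on the log2 scale. RBBP8NL changed by 1.95 in OV-90, -2.45 in Kuramochi and 0.013 in EFO-21, and GJA1 by 2.82, -6.71 and -0.94. ZIC2 changed by 0.23, -1.08 and -0.13 in the same lines, and DCN by -0.64, -2.52 and -0.0086.

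The largest negative differences were those of MAL (-8.45), IGLC3 (-5.72), IGLC2 (-5.52), LINC03041 (-5.50), IGHG1 (-5.32) and IGKC (-5.27). The 4 immunoglobulin genes belong to the set of 33 genes that was also high in OV-90 library 2 and Kuramochi library 6, and the part of that pattern in their differences was not tested. LINC03041 changed by -0.14 in OV-90, -1.76 in Kuramochi and -0.47 in EFO-21. Leaving out the set of 33 genes, 2312 genes differed between OVSAHO and the other lines, 1239 higher and 1073 lower.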

How the results depend on the processing

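The count of 1681 genes depended on how low genes and small changes were treated. With genes of low mean left out it was 871 (433 higher, 438 lower), at a 1.5-fold threshold 3169 (1711 and 1458) and with no fold threshold 7203 (3696 and 3507). When each of the 6 libraries was left out in turn it ranged from 1484 to 1688, with 732 to 887 higher and 738 to 801 lower. Under the ordinary linear model without moderation it was 1329 (682 higher, 647 lower), below every fit that left out 1 library. Leaving out the set of 33 genes was chosen after seeing the data. For the difference from the other lines, the count of 2328 became 1245 (667 higher, 578 lower) with low genes left out and 6573 (3335 and 3238) with no threshold on its size. It became 3700 against OV-90 alone, with 2033 lower, and 5268 against Kuramochi alone, 2620 higher and 2648 lower. Against EFO-21 alone it was 3396, 1792 higher and 1604 lower. The count ranged from 2190 to 2270 over the 6 left-out libraries, with 1168 to 1227 higher and 1011 to 1044 lower. In windows of 10 genes the highest median was 0.85 and the lowest -1.26. The small differences of 2 genes that were not called changed sign. ABCG2 ranged from -0.035 (without resistant library 20) to 0.26 and was at -0.00068 without resistant library 21. CDK1 ranged from -0.071 to 0.051 (without resistant library 19), and was at 0.0080 without parental library 8 and 0.046 without parental library 9. Of 146 named genes that were called, 126 were called in all 10 fits that keep every gene and 20 were lost in at least 1, and the cause was not tested. The filter on low means kept 70 of the 146, all still called, and left out 76, which were not tested there. No paired analysis was possible because the columns carry library numbers and no replicate numbers. The depth of the libraries is unknown, so low values carry an error that cannot be given.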

Other observations

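Groups not described above stayed mostly under 2-fold. Of 33 genes of glycolysis and the hypoxia response, 0 were called in either direction in limma and the ordinary model, with 3 higher and 8 lower at an unadjusted p under 0.05, and the median change was 0.0026. NDRG1, a gene induced by hypoxia, differed by -0.75 (adjusted p = 0.00125) and HIF1A, the oxygen-regulated transcription factor, by 0.61 (adjusted p = 0.00479). Among 18 cadherins, CDH19 read 0.36, 0.36 and 0.22 in the parental and 1.87, 3.60 and 3.03 in the resistant libraries, and CDH2, N-cadherin, differed by 0.64 (adjusted p = 0.00223). Among p53 targets, CDKN1A, the CDK inhibitor p21, differed by 0.67 (adjusted p = 0.0172) and GADD45A by 0.79 (adjusted p = 0.000523), both under the fold threshold. These 5 genes other than CDH19 were chosen after their values were seen.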
